A study of Homo sapiens with 12 samples.

Results

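The genes described here are 10 genes of the long arm of chromosome 12, bands q13 to q15, which surround the oncogenes MDM2 and CDK4. They were chosen by symbol, as the genes of the segment known for amplification in the osteosarcoma cell line SJSA-1: MDM2, CDK4, GLI1, TSPAN31, OS9, METTL1, CPM, FRS2, YEATS4 and HMGA2. Each symbol had 1 row among the 59248 rows of the deposited count table, and all 10 were among the 16489 genes with enough counts to be tested. RNA was measured, and the copy number of these genes in the cells used was not analysed here. Expression was compared between 6 libraries of SJSA-1 cells that stably express an shRNA against RUNX2 (sh1) and 6 libraries of SJSA-1 cells that stably express a scramble shRNA (shNC). Both groups were infected with lentivirus, selected with puromycin and grown until the cells were EGFP-positive. Each group stands for 1 construct, and sh1 was the most effective of 3 shRNAs designed against RUNX2. Whether the 6 libraries of a group came from separate cultures is not stated, and the p-values therefore cover library-to-library spread that may be technical.

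SJSA-1 is an established human osteosarcoma line, and extra copies of 12q13-15 are a known feature of osteosarcoma and of liposarcoma. MDM2 is a RING-type ubiquitin ligase that marks its substrates for degradation by the proteasome, and its gene is transcribed from an upstream and an internal promoter. CDK4 is the kinase that, with a D-type cyclin, phosphorylates the retinoblastoma protein and lets cells pass from G1 into S phase. The segment often comes as a CDK4 block, with TSPAN31, OS9 and METTL1, and an MDM2 block, with CPM, FRS2 and YEATS4, while HMGA2, an architectural chromatin protein, lies between them.

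For each gene that rose, 1 promoter is shown first, then the 1 promoter of the group that holds a RUNX core hexamer. The hexamer was searched since RUNX2 was the targeted gene. MDM2 and CPM have further promoters that are not printed, and gene counts do not tell which promoter a rise came from. All promoters are RefSeq promoters of GRCh38.p14 and run from 250 bases before to 50 bases after an annotated start. Of the 10 genes, 7 had an entry, with 12 promoters (GLI1, METTL1 and HMGA2 had none). The RUNX core hexamer was searched as TGTGGT and its reverse complement ACCACA, which covers both strands. In the internal MDM2 promoter (chr12:68808767-68809066, plus strand), in the FRS2 promoter (chr12:69470138-69470437, plus strand) and in a CPM promoter (chr12:68933122-68933421, minus strand), the capital marks the annotated start, since the hexamer was not found in them.
MDM2 internal promoter: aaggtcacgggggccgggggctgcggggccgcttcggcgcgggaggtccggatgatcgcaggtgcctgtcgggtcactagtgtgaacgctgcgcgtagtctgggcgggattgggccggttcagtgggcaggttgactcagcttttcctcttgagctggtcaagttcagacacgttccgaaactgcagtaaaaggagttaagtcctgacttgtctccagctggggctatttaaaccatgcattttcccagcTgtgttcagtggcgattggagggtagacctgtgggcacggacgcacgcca
FRS2 promoter: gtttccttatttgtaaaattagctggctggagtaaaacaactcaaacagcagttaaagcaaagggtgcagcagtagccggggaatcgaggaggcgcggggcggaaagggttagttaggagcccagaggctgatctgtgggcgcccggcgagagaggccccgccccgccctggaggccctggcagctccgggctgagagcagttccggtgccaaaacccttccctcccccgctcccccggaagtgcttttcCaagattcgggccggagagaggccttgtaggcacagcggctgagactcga
CPM promoter: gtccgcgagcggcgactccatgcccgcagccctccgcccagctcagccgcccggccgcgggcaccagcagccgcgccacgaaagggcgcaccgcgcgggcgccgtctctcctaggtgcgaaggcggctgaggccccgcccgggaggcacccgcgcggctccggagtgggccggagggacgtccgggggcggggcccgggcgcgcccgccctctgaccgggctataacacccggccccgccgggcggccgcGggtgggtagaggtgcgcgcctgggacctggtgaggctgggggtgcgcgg
In the TSPAN31 promoter (chr12:57744789-57745088, plus strand), the capitals mark the RUNX hexamer.
TSPAN31 promoter: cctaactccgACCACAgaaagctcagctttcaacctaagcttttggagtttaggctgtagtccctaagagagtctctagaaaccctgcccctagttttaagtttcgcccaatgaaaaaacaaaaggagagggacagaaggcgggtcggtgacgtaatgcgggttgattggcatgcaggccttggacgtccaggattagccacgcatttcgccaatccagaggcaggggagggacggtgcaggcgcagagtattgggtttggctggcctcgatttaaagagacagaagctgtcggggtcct
The internal MDM2 start at 68809017 lies in intron 1 of the canonical transcript, between 68808492 and 68809207. The hexamer occurred in 13.1% of the 35116 promoters of the table and in 1 of these 12. A match is one of letters only.

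The total gene count was 11239638 to 16346022 per library in sh1 and 15328312 to 19992974 in shNC. RUNX2, the targeted gene, was at 24.6 ± 1.95 normalized counts in sh1 and 39.8 ± 4.31 in shNC (SD, n = 6 each). The quasi-likelihood test of edgeR gave it a log2 fold change of -0.69 with a standard error (SE) of 0.0764 (adjusted p = 4.6e-06). Normalized counts are counts scaled to 1000000 counts per library, by TMM factor and by the library's total over the genes tested. The library sh1 replicate 3 stood apart, with the lowest total and 1.23% of its counts in rows without an Ensembl identifier, against 0.468% to 0.531% in the other sh1 libraries and 0.508% to 0.576% in shNC. The labels name no batch. In such bulk libraries, fewer cells with a transcript and less of it per cell cannot be told apart. Of 9 osteoblast and mesenchymal markers, 5 were above 1 FPKM in every library, led by SPARC, VIM and FN1, while ALPL and SP7 had at most 1 count and COL1A2 at most 0.0798 FPKM. Their summed level was 784 to 933 FPKM in sh1 and 599 to 702 FPKM in shNC, but they did not move together. SPARC was at a mean of 474 FPKM in sh1 and 297 FPKM in shNC, and VIM at 247 and 266 FPKM. Of the 7 markers tested, 3 were higher in sh1 at an adjusted p under 0.05 and RUNX2 was lower. The other 3, FN1 and VIM among them, did not pass. Of 5 epithelial markers only KRT18 was above 1 FPKM (46.8 to 56.5 FPKM) and CDH1 was at 0. The summed skeletal muscle markers were at 0.221 to 1.52 FPKM in sh1 and 0 to 0.188 FPKM in shNC, and blood, endothelial, neural and fat markers each summed to at most 0.959 FPKM in every library. The part of these differences in the values below was not tested.

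At baseline, the MDM2 segment held some of the most abundant transcripts of the cells. Levels between genes were compared as FPKM, which divides counts by gene length and library total. In the shNC libraries MDM2 was at 60.8 to 77.5 FPKM, a mean at percentile 97.1 of all genes tested. HMGA2 was at 40.7 to 52.5 FPKM (percentile 95.2) and CDK4 at 39.2 to 47.4 FPKM (percentile 94.5), and the ranges of these genes overlapped. YEATS4, the histone acylation reader also called GAS41, followed at 23.7 to 27.3 FPKM (percentile 89.5), and OS9, a lectin of endoplasmic reticulum quality control, at 16.6 to 20.2 FPKM (percentile 84.6). FRS2, the docking protein of FGF receptors, lay at 6.85 to 9.05 FPKM (percentile 65.7). The tetraspanin gene TSPAN31, at 4.86 to 6.13 FPKM (percentile 56.3), overlapped METTL1, the tRNA 7-methylguanosine methyltransferase, at 3.36 to 5.46 FPKM (percentile 51.2). At the low end were CPM, the membrane enzyme carboxypeptidase M, at 0.224 to 0.358 FPKM (percentile 6.39), and the Hedgehog transcription factor GLI1 at 0.0558 to 0.321 FPKM (percentile 2.95), again with overlapping ranges. The other neighbours in this order did not overlap between libraries, although part of the order depends on the length used.

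**Figure D1:**
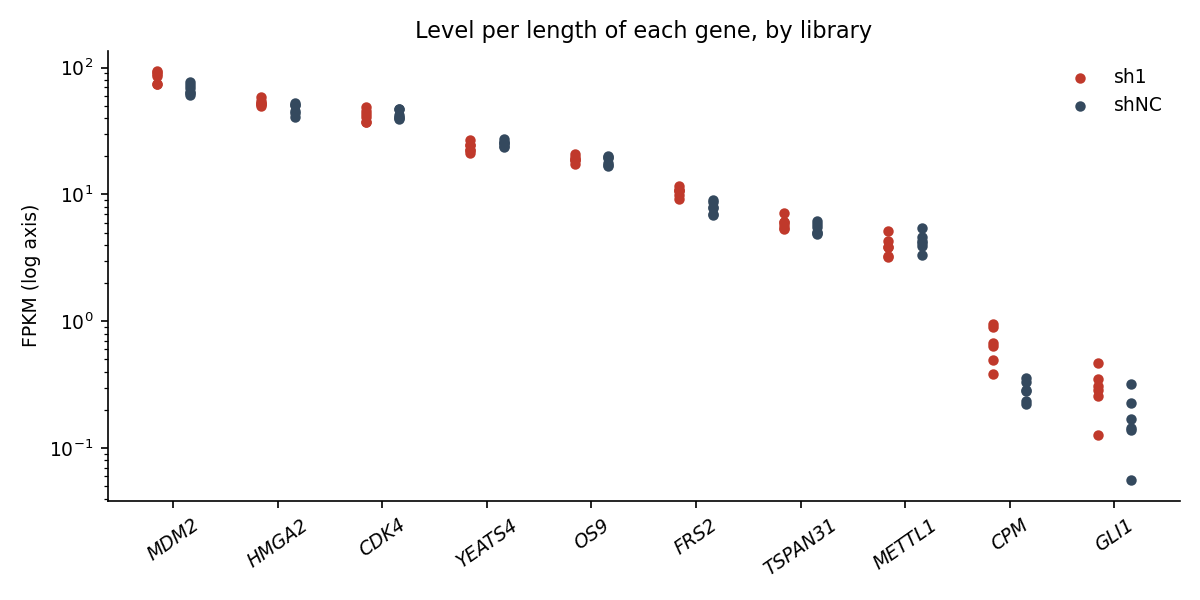
FPKM on a log axis for each of the 10 genes, with a point for each sh1 library (red) and each shNC library (dark blue). MDM2, HMGA2 and CDK4 lie highest, and CPM and GLI1 lie below 1 FPKM in all 12 libraries.

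The median shNC level of the 10 genes, all protein-coding, was 13.2 FPKM, at a median percentile of 75.2. It was 4.06 FPKM over all genes tested and 5.9 FPKM (percentile 58.6) over the protein-coding genes tested. The FPKM of these genes depends on the length that the authors' counting gave them, which was 13284 bases for MDM2, 15403 bases for HMGA2 and 3168 bases for CDK4, while their canonical transcripts have 7490, 4117 and 1865 bases. Scaled to the canonical lengths, HMGA2 came first, at 152 to 197 FPKM in shNC, MDM2 followed at 108 to 137 and CDK4 at 66.5 to 80.5, without overlap. OS9 (32.1 to 39.0) then lay above YEATS4 (27.7 to 31.9), METTL1 and TSPAN31 changed places within overlapping ranges, and 4 of the 10 genes kept their place. By normalized counts, which are not divided by length, 7 of 10 kept their place, and OS9 (96.0 ± 7.08) and FRS2 (57.7 ± 5.85) came before YEATS4 (43.8 ± 2.92, SD, n = 6 shNC libraries). Together the 10 genes took 0.216% to 0.254% of all counts in sh1 and 0.182% to 0.213% in shNC. MDM2 alone took 0.0989% to 0.124% in sh1 and 0.0808% to 0.103% in shNC. Of the summed counts of the segment's 10 genes, most thus came from MDM2 and HMGA2, at mean levels of 1125 and 819 normalized counts in sh1 and 912 and 735 in shNC.

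Of the 10 genes, MDM2, FRS2 and CPM rose in sh1 cells (3 of 10), none fell and 7 did not pass the test. Over all genes tested, 26.1% passed at an adjusted p under 0.05, 12.8% as higher and 13.3% as lower in sh1. The median log2 fold change of the 10 genes was 0.14, against -0.00 over all genes. For FRS2 and CPM (2 of 10) the libraries of the groups did not overlap, as was so for 11.9% of all genes tested. Of the 10, only CPM rose by more than 2-fold, which 1.2% of all genes tested reached. The 3 that rose all belong to the MDM2 block, but YEATS4 of the same block did not pass (log2 fold change -0.12). Of 12 further tested genes of that block, none was higher and 4 were lower. None of GLI1, OS9, TSPAN31, CDK4 and METTL1 passed in either direction.

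**Figure D2:**
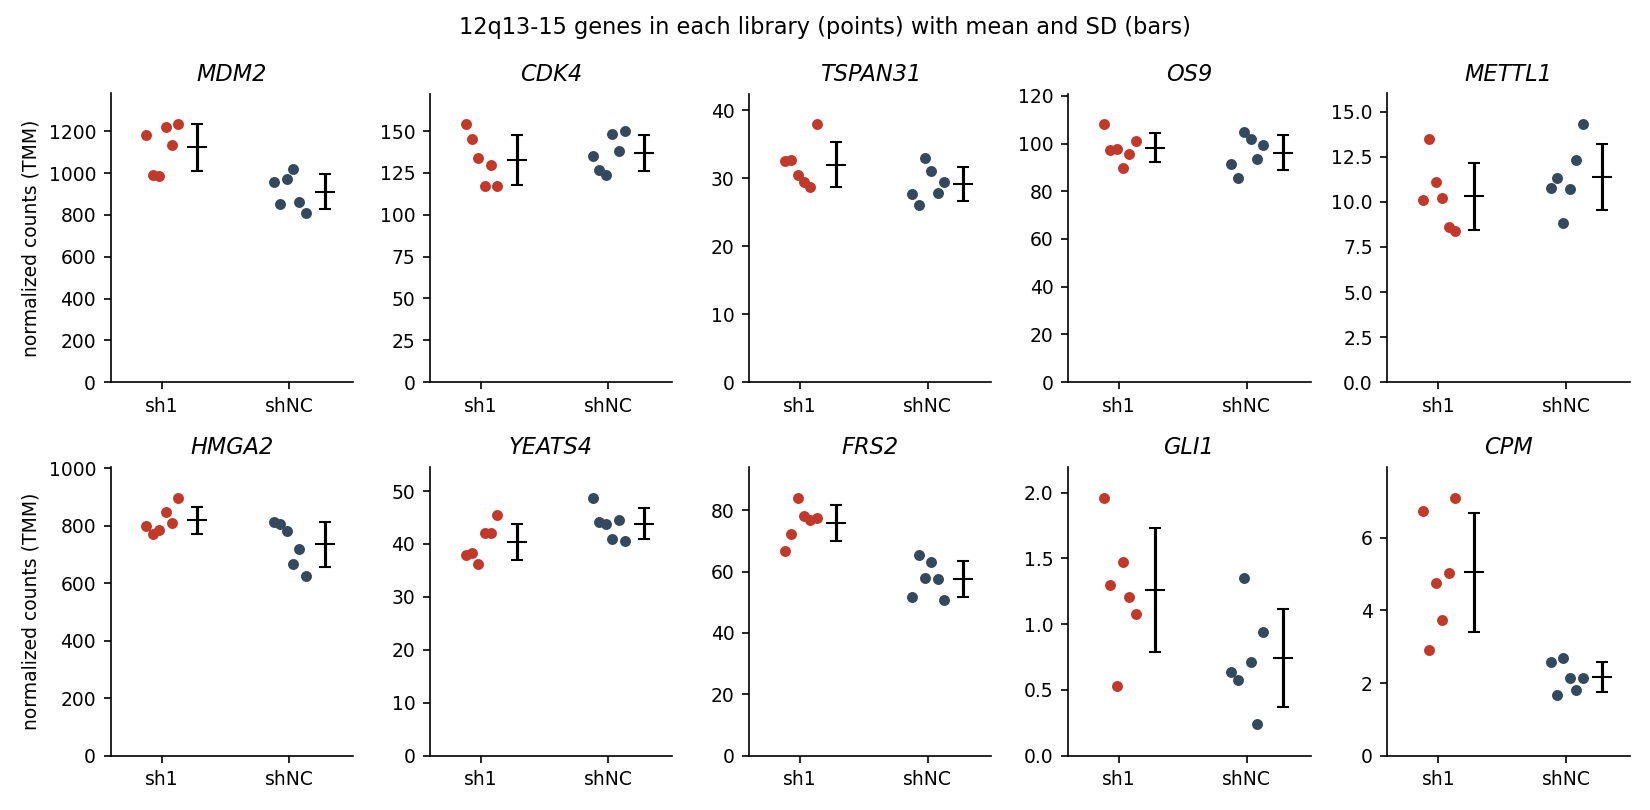
Normalized counts for each of the 10 genes in the 6 sh1 libraries (red, left) and the 6 shNC libraries (dark blue, right), with the mean and SD as bars. FRS2 and CPM show no overlap between the groups, while 4 of 6 sh1 libraries lie above every shNC library for MDM2.

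MDM2 (ENSG00000135679, chromosome 12 from 68808177 to 68845544, plus strand, GRCh38) rose modestly from its high baseline. It was at 1184, 990, 984, 1223, 1134 and 1233 normalized counts in sh1 replicates 1 to 6, against 957, 850, 972, 1021, 863 and 807 in shNC replicates 1 to 6. The sh1 libraries 2 and 3 lay inside the shNC range and the other 4 lay above it. The log2 fold change was 0.30 (1.23-fold, SE 0.0708, adjusted p = 0.0042 from edgeR), and an exact two-sided permutation test over the libraries gave p = 0.011. On the FPKM scale MDM2 averaged 84.9 ± 8.49 in sh1 and 68.1 ± 6.37 in shNC (SD, n = 6 each). Without sh1 replicate 3 its log2 fold change was 0.35 (adjusted p = 0.0013). The ratio of MDM2 to CDK4 in FPKM was 1.83, 1.62, 1.75, 2.49, 2.08 and 2.52 in the sh1 libraries and 1.69, 1.6, 1.87, 1.65, 1.49 and 1.28 in the shNC libraries. The ratio was above the shNC range in sh1 libraries 4, 5 and 6 and inside it in the other 3.

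FRS2 (ENSG00000166225, 69470349 to 69579793, plus strand), which couples activated FGF receptors to the RAS and ERK cascade, showed no overlap between the groups, with all sh1 libraries on the higher side. It was at 66.7, 72.4, 84.0, 78.1, 76.8 and 77.6 normalized counts in the sh1 libraries, against 51.6, 65.3, 57.9, 63.0, 57.7 and 50.7 in the shNC libraries. The log2 fold change was 0.39 (1.31-fold, SE 0.0695, adjusted p = 0.00043 from edgeR), with an exact permutation p of 0.0022, the smallest that 6 libraries against 6 can give. Without sh1 replicate 3 it was 0.37 (adjusted p = 0.00088). FRS2 shares no exon bases with another annotated gene.

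CPM (ENSG00000135678, 68842197 to 68971570, minus strand), which cuts basic residues from the ends of peptides at the cell surface, showed the largest fold change of the 10 genes from a low level. It was at 6.73, 2.9, 4.77, 3.74, 5.04 and 7.1 normalized counts in the sh1 libraries and at 2.59, 1.68, 2.7, 2.14, 1.8 and 2.14 in the shNC libraries. The groups did not overlap, though sh1 replicate 2 lay close to the highest shNC library. The log2 fold change was 1.20 (2.3-fold, SE 0.206, adjusted p = 0.00033 from edgeR, exact permutation p = 0.0022), and without sh1 replicate 3 it was 1.23 (adjusted p = 0.00051). These values rest on 47 to 105 counts per library in sh1 and 30 to 54 in shNC. CPM and MDM2 lie tail to tail on opposite strands, and 2.93% of the exon bases of CPM (221 bases) are shared with other genes, MDM2 among them. Exon bases shared with CPM and 2 long non-coding genes made up 14.7% of those of MDM2. Strand is not marked by the library kit, so reads from such shared bases cannot be told apart. MDM2 rose 1.23-fold in the same comparison and CPM 2.3-fold. The part of shared bases in either change was not tested.

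CDK4 (ENSG00000135446, 57747727 to 57756013, minus strand) did not pass the test. It was at 154, 145, 134, 117, 130 and 117 normalized counts in the sh1 libraries and at 135, 127, 124, 148, 138 and 150 in the shNC libraries. The shNC range lay within the sh1 range. The log2 fold change was -0.04 (0.972-fold, SE 0.0705, adjusted p = 0.71 from edgeR), with an exact permutation p of 0.6. TSPAN31, which overlaps the end of CDK4 on the opposite strand, was at 28.7 to 37.9 normalized counts in sh1 (median 31.5) and 26.1 to 33.0 in shNC (median 28.7), with a log2 fold change of 0.13 (SE 0.0766, adjusted p = 0.22). Of the exon bases of CDK4, 44.2% are shared with TSPAN31, and of those of TSPAN31 30.9% are shared with CDK4 and other genes, so their reads cannot be told apart there.

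OS9 and METTL1, which lie on either side of CDK4, did not pass the test either. OS9 was at 89.8 to 108 normalized counts in sh1 (median 97.4) and 85.6 to 105 in shNC (median 96.3), a log2 fold change of 0.03 (SE 0.0572, adjusted p = 0.72). METTL1 was at 8.38 to 13.5 in sh1 (median 10.1) and 8.81 to 14.3 in shNC (median 11), a log2 fold change of -0.14 (SE 0.125, adjusted p = 0.45). The ranges of both genes overlapped almost completely between the groups. OS9 shares 23.9% of its exon bases with AGAP2 and other genes, and METTL1 11.4% with CYP27B1 and EEF1AKMT3. None of AGAP2 (log2 fold change -0.14), CYP27B1 (0.12) or EEF1AKMT3 (0.05) passed the test.

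HMGA2 (ENSG00000149948, 65824460 to 65966291, plus strand) lay near the threshold. It was at 773 to 897 normalized counts in sh1 (median 805) and 626 to 813 in shNC (median 750), so that 2 of 6 sh1 libraries exceeded every shNC library. The log2 fold change was 0.15 (1.11-fold, SE 0.065, adjusted p = 0.088 from edgeR, exact permutation p = 0.058). It passed when shNC replicate 1 (0.19, adjusted p = 0.0433) or shNC replicate 2 (0.19, adjusted p = 0.0452) was left out. YEATS4 had the opposite sign, at 36.2 to 45.4 normalized counts in sh1 (median 40.2) and 40.6 to 48.7 in shNC (median 44), a log2 fold change of -0.12 (SE 0.0652, adjusted p = 0.2). Of the sh1 libraries, 3 lay below every shNC library for YEATS4.

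GLI1 (ENSG00000111087, 57459785 to 57472268, plus strand) had the fewest counts of the 10 genes. It held 6 to 30 counts per library in sh1 and 4 to 27 in shNC, or 0.53 to 1.96 normalized counts in sh1 (median 1.25) and 0.24 to 1.35 in shNC (median 0.673). The log2 fold change of 0.76 (1.7-fold, SE 0.317) did not pass (adjusted p = 0.084 from edgeR, exact permutation p = 0.065). GLI1 passed in 2 of 23 alternative fits. These left out sh1 replicate 3 (0.90, adjusted p = 0.0353) or shNC replicate 3 (1.05, adjusted p = 0.0208).

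**Figure D3:**
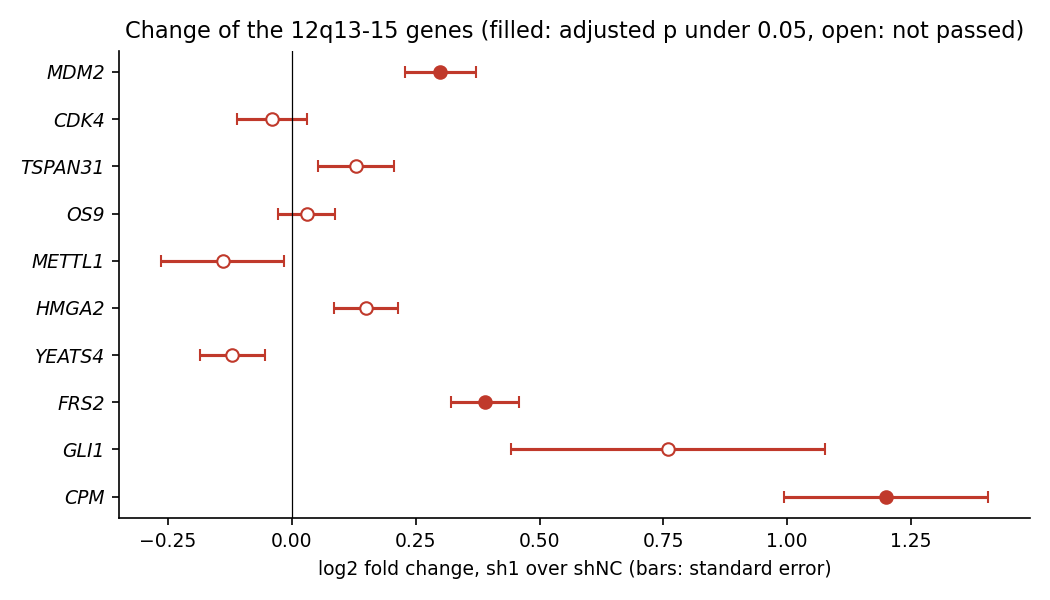
Log2 fold change of sh1 over shNC for each of the 10 genes, with bars for the standard error, filled points for genes with an adjusted p under 0.05 and open points for the rest. MDM2, FRS2 and CPM are filled, at 0.30, 0.39 and 1.20.

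The 10 genes varied from library to library in different ways. After centring each group on its mean, YEATS4 and HMGA2 were the most alike of the 45 pairs (r = 0.779 over 12 libraries), followed by TSPAN31 and OS9 (0.746) and by CDK4 and METTL1 (0.600). MDM2 and CPM had r = 0.550 and MDM2 and FRS2 0.025. MDM2 and CDK4 had r = -0.343, CDK4 and HMGA2 -0.747, and MDM2 and METTL1 -0.767. These coefficients share libraries and scaling and are descriptions without a test. The genes also differ in GC content, at 39.3% for YEATS4, 43.5% for HMGA2 and 39.5% for MDM2. CDK4 was at 52% and METTL1 at 53.1%, while FRS2, little alike to MDM2, was at 36.9%. The part of GC content in these coefficients was not tested. Among all genes with a mean log2 level of at least 1, the nearest to MDM2 were ZFHX2 (0.922), the pseudogene ZNF252P (0.921) and RECK (0.912). The nearest to CDK4 were B4GALT2 (0.968), RNF40 (0.963) and PUF60 (0.962).

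Other genes of the segment moved in both directions. Between 57 and 70 Mb of chromosome 12, 79 other genes were tested. In sh1, 6 of them rose (7.59%, against 12.8% of all genes) and 12 fell (15.2%, against 13.3%). Their median log2 fold change was -0.00. On the rest of the chromosome, 83 of 781 tested genes rose (10.6%) and 113 fell (14.5%), and the median was -0.03. In the MDM2 block, from RPSAP12 to RAB3IP, 12 further genes were tested, of which none was higher and 4 were lower (33.3%). These 4 were NUP107, a subunit of the nuclear pore (-0.20, adjusted p = 0.0013), SLC35E3 (-0.24, adjusted p = 0.0058), RAB3IP (-0.23, adjusted p = 0.0083) and the chaperonin subunit CCT2 (-0.14, adjusted p = 0.044). Genes that fell thus lay on either side of MDM2, and CCT2 lies next to FRS2. In the CDK4 block, from INHBE to GIHCG, none of 20 further tested genes was higher. The lipid kinase gene PIP4K2C (-0.48, adjusted p = 2.9e-05) and MBD6 (-0.44, adjusted p = 5.6e-05) were lower (10% of the 20).

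**Figure D4:**
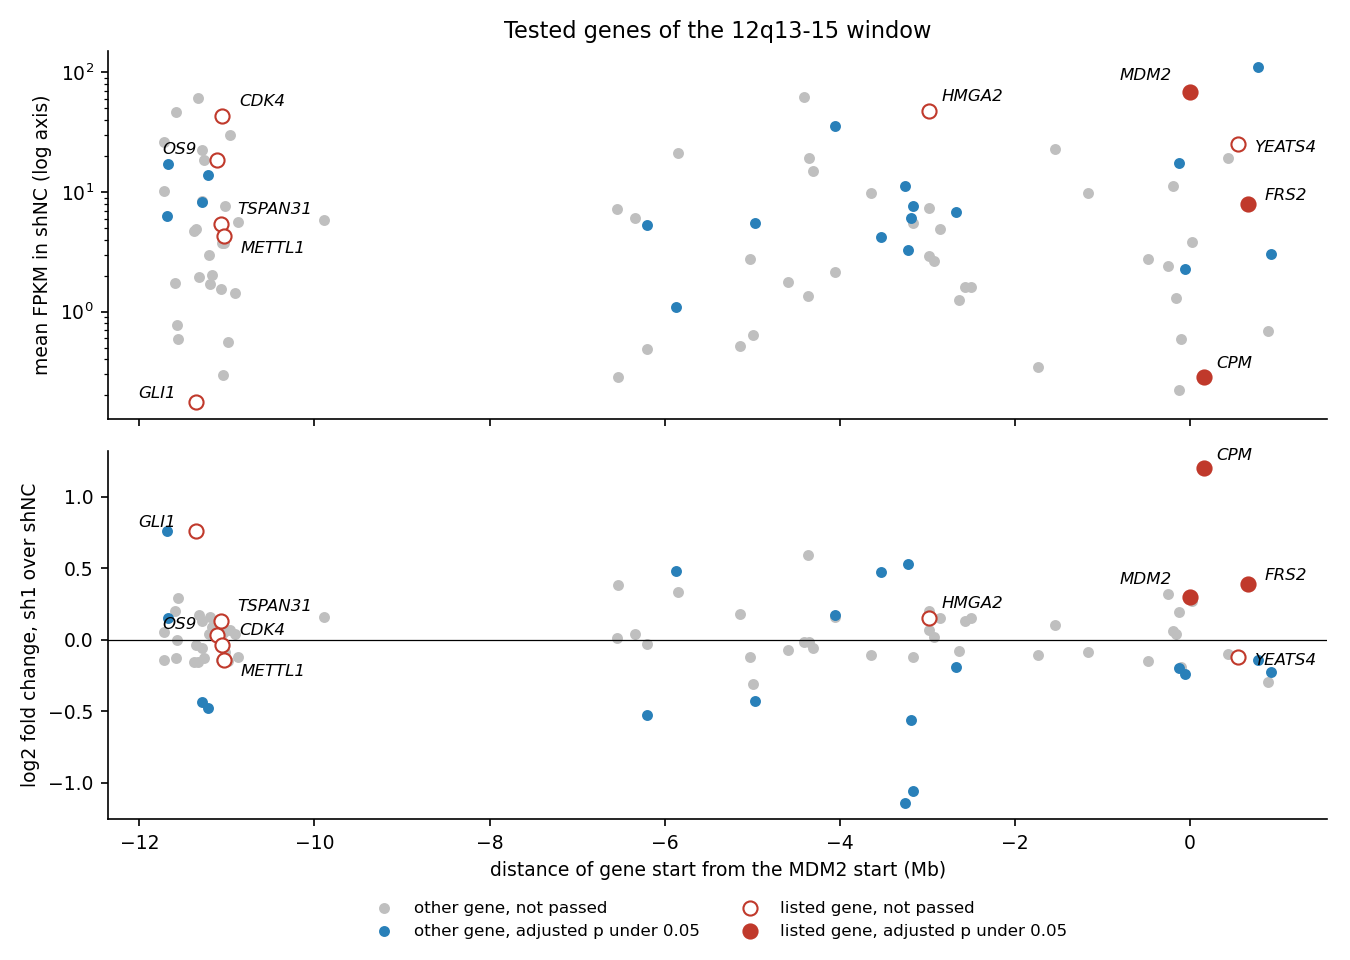
Mean shNC level in FPKM on a log axis (top) and log2 fold change of sh1 over shNC (bottom) of every tested gene from 57 to 70 Mb, by the distance of its start from that of MDM2 in Mb. Red circles are the 10 genes (filled where they passed) and blue points are other genes that passed. MDM2, FRS2 and CPM lie above 0, and the 4 other genes that passed in the MDM2 block lie below it.

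At baseline, the median of the 79 other genes of the window lay at percentile 53.7 of all genes in shNC, and that of the rest of the chromosome at percentile 53.9. CCT2 (110 FPKM), the tRNA export factor XPOT (62.8 FPKM), the methionyl-tRNA synthetase MARS1 (60.9 FPKM) and the mitochondrial serine hydroxymethyltransferase SHMT2 (46.4 FPKM) were the most abundant of them in shNC. Of these 4, only CCT2 passed the test. Elsewhere in the window the endocytic receptor LRP1 rose (0.76, adjusted p = 0.00073), as did the methionine sulfoxide reductase MSRB3 (0.47, adjusted p = 3.3e-05). LINC02454 (0.53, adjusted p = 0.0016), PPM1H (0.48, adjusted p = 0.0043) and STAT6, the transcription factor of interleukin-4 signalling (0.15, adjusted p = 0.024), also rose. The antisense gene MSRB3-AS1 fell by 1.06 on the log2 scale (adjusted p = 4.5e-07) and SRGAP1 by 0.43 (adjusted p = 8.5e-06). The long non-coding gene ENSG00000255866, within the span of MSRB3-AS1 on the other strand, fell by 1.14 (adjusted p = 9.9e-05), the largest change of the 79. MSRB3 and MSRB3-AS1 overlap on opposite strands, so their reads cannot be told apart where exons meet.

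MDM4, the paralog of MDM2 that forms a heterodimer with it, also rose (log2 fold change 0.18, adjusted p = 0.026).

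CDK4 works with cyclins and is held back by inhibitors, with the RB family as substrates. Of 18 tested genes of these kinds, 5 were higher (27.8%, against 12.8% of all genes) and 5 were lower (27.8%, against 13.3%), with a median log2 fold change of -0.06. CCND1, the cyclin D1 gene, was at 465 ± 50.7 normalized counts in sh1 and 679 ± 65.2 in shNC (SD, n = 6 each), and so fell by 0.55 on the log2 scale (adjusted p = 3.6e-05). CCND2, of low level, fell by 0.62 on the log2 scale (adjusted p = 0.0027) and CDK6, the sister kinase of CDK4, by 0.16. RB1, the substrate, rose (0.35, adjusted p = 0.00018), and so did the inhibitor genes CDKN1B (0.27) and CDKN1A (0.24, adjusted p = 0.026), RBL2 (0.15) and E2F3 (0.13, just under the threshold). E2F1, the transcription factor that RB restrains, fell by 0.38 on the log2 scale (adjusted p = 0.0023) and E2F2 by 0.42. CDKN2A and CDKN2B, which encode the CDK4 inhibitors p16 and p15, had at most 1 count in any library of either group and were not tested.

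**Figure D5:**
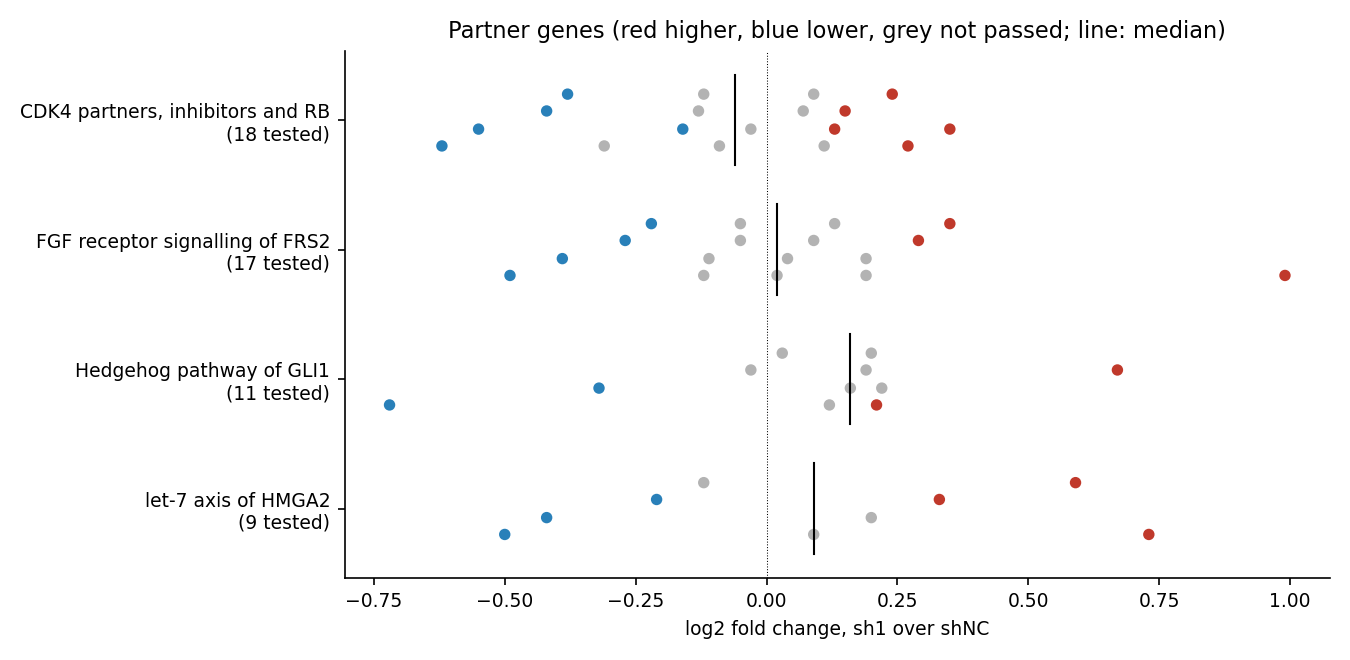
Log2 fold change of sh1 over shNC for the tested genes of 4 lists around CDK4, FRS2, GLI1 and HMGA2, with a point for each gene (red higher, blue lower and grey not passed at an adjusted p under 0.05) and a line at the median. Each list holds genes that rose, to the right of 0, and genes that fell, to the left of it.

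FRS2 acts in FGF receptor signalling. Of 17 tested genes of this list, 3 were higher (17.6%, against 12.8% of all genes) and 4 were lower (23.5%, against 13.3%), with a median log2 fold change of 0.02. The receptor genes FGFR3 (0.99, adjusted p = 0.00025) and FGFR1 (0.29, adjusted p = 0.0012) and the adaptor SHC1 (0.35, adjusted p = 0.00033) rose beside FRS2. FGFR3 was at a low level, with means of 0.682 FPKM in sh1 and 0.339 FPKM in shNC. The ETS factors ETV4 (-0.49, adjusted p = 0.0002) and ETV5 (-0.22) and the feedback inhibitors SPRY4 (-0.39) and SPRED2 (-0.27) fell. Their relatives SPRY1 (0.04), SPRY2 (-0.05) and SPRED1 (0.13) did not pass. In the Hedgehog list of GLI1, 11 of 16 genes were tested. Of these, 2 were higher (18.2%, against 12.8% of all genes) and 2 were lower (18.2%, against 13.3%). The Hedgehog-binding HHIP, itself a known GLI target, fell by 0.72 on the log2 scale (adjusted p = 1.2e-05), the inhibitor SUFU by 0.32, and the coreceptors BOC (0.67, adjusted p = 0.0002) and CDON (0.21) rose. PTCH1, the receptor and best known GLI1 target, did not pass (0.22), and the ligands SHH, IHH and DHH had at most 2, 1 and 5 counts in any library.

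HMGA2 is a classic target of the let-7 microRNAs. Of 9 tested genes of this axis, 3 were higher (33.3%, against 12.8% of all genes) and 3 were lower (33.3%, against 13.3%). The median log2 fold change was 0.09. The let-7 inhibitor LIN28B (0.73, adjusted p = 9.8e-07), DICER1, the RNase that processes precursor microRNAs (0.59, adjusted p = 1.4e-05), and IGF2BP1 (0.33, adjusted p = 1.1e-05) rose. NRAS fell by 0.50 on the log2 scale (adjusted p = 7.1e-07), ARID3B by 0.42 and HMGA1, the paralog of HMGA2, by 0.21.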

How the data were processed

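Polyadenylated RNA of 12 SJSA-1 libraries was sequenced as read pairs. The authors aligned reads with HISAT2 to GRCh38 (Ensembl release 87) and counted them per gene with featureCounts, and the deposited counts are not normalized. The deposited FPKM values are these counts divided by gene length and library total. A deposited table of counts divided by size factors was not used. The versions of HISAT2 and featureCounts were not given in the sources used here. The table also holds 572 rows without an Ensembl identifier, of unstated origin, which were kept in the library totals given above. The scaling of the edgeR fit used only rows that passed the filter. Coordinates and shared exon bases are those of GENCODE 44, while the reads were counted on the gene models of release 87. The 2 differ, since MDM2 has 8306 exon bases in GENCODE 44 and a counting length of 13284 bases.

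All 12 libraries entered 1 fit of the counts by edgeR 4.0.16 under R 4.3.3, with TMM factors, the filterByExpr filter and the quasi-likelihood functions glmQLFit and glmQLFTest, with Benjamini-Hochberg adjustment over 16489 genes and a threshold of 0.05. Standard errors are the size of the log2 fold change over the root of its F statistic. Exact permutation tests used 924 arrangements of the libraries. Totals of 11239638 to 19992974 counts gave a common biological coefficient of variation of 0.106. The test was checked on simulated data. Members and lists were chosen with earlier results of these data known. Beside the 10 genes and RUNX2, the text names the smallest p-values of each list, genes of the window by abundance and by the smallest p-values in each direction, genes that overlap a member and the 3 nearest to MDM2 and CDK4; further genes of the lists, the blocks and the markers were named after their values were seen. Some genes and a list that needs 1 of them are not reported here. Alternatives were DESeq2 1.42.0, limma 3.58.1 on log2(FPKM + 1) and log2(FPKM + 0.1), other scalings and filters, robust dispersion, a replicate block, leaving out each library and, chosen after the data had been seen, levels per canonical transcript length and offsets for GC content and length.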

Additional observations from a re-analysis of the deposited data

How the results depend on the processing

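MDM2, FRS2 and CPM passed the test in the same direction in all 24 alternatives, with log2 fold changes of 0.27 to 0.35, 0.36 to 0.44 and 0.37 to 1.34 (the lowest CPM value on the log2(FPKM + 1) scale) and adjusted p of 0.00014 to 0.027, 4.4e-06 to 0.0067 and 3.5e-07 to 0.013. CDK4, TSPAN31, OS9, METTL1 and YEATS4 passed in none. CDK4 ranged from -0.0768 to 0.0040 when 1 library was left out and changed sign without sh1 replicate 4 (0.0025, adjusted p = 0.985) and without sh1 replicate 6 (0.0040, adjusted p = 0.974). HMGA2 passed in 4 of 24, among them library totals (0.17, adjusted p = 0.049) and GC and length offsets (0.16, adjusted p = 0.0382), and GLI1 in 2 of 23, since it was not tested where at least 10 counts in every library were asked. Over their alternatives the adjusted p was 0.038 to 0.2 for HMGA2 and 0.021 to 0.26 for GLI1. Members higher in sh1 numbered 3 or 4 and lower 0 when single libraries were left out. The alternatives moved the median of all genes to at most 0.0221 on the log2 scale.

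Counts of genes changed at least 2-fold (198 higher and 146 lower) varied with the filter and the scale: DESeq2 called 325 higher, at least 10 counts in every library left 105 and 76, no filter gave 464 and 257, limma on log2(FPKM + 1) gave 12 and 21, without a filter 15 and 25, and on log2(FPKM + 0.1) 112 higher. Leaving out 1 library gave 1821 to 2438 genes higher and 1650 to 2208 lower, 194 to 243 and 140 to 163 of them at least 2-fold, and 5 to 7 higher and 9 to 13 lower in the window. With canonical transcript lengths, chosen after the data had been seen, 4 of the 10 genes kept their place in the order of levels. The replicate block gave 1680 higher and 1701 lower, 3 members higher and 0 lower, and same-numbered libraries did not deviate together (r = -0.162 to 0.033). Whether same-numbered libraries were prepared together is not stated, and these coefficients cannot decide it. GLI1, with 4 to 30 counts per library, had the widest standard error of the 10 genes (0.317).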

Other observations

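Further lists around the less changed members were also read. Of 17 tested tetraspanins, the family of TSPAN31, 3 were higher (17.6%, against 12.8% of all genes) and 8 lower (47.1%, against 13.3%) in sh1, with a median log2 fold change of -0.19. TSPAN7 (0.48, adjusted p = 0.022 from edgeR), CD82 (0.24, adjusted p = 0.016) and TSPAN3 (0.16, adjusted p = 0.02) rose. CD9, at a low level, fell by 1.04 on the log2 scale (adjusted p = 0.0001 from edgeR), TSPAN18 by 1.00 (adjusted p = 8.8e-05) and CD63, the abundant tetraspanin of late endosomes, by 0.24 (adjusted p = 0.003). TSPAN31 itself was at 0.13 and did not pass.

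Of 15 tested genes of endoplasmic reticulum-associated degradation, in which OS9 recognises misfolded glycoproteins, 11 did not pass. None was higher (against 12.8% of all genes) and 4 were lower (26.7%, against 13.3%). These 4 were DERL1 (-0.24, adjusted p = 0.0095), UFD1 (-0.22, adjusted p = 0.014), ERLEC1, the other lectin of this pathway (-0.16, adjusted p = 0.011), and the chaperone gene HSPA5 (-0.24, adjusted p = 0.016). Of 15 tRNA methyltransferase genes around METTL1, only TRMT6 was lower (-0.25, adjusted p = 0.0023), or 6.67%, against 13.3% of all genes. The other 14 did not pass, WDR4, the METTL1 partner, among them (0.05). Of 20 genes of the TIP60 and SRCAP complexes of YEATS4, ACTR6 (-0.26, adjusted p = 0.0032) and ACTL6A (-0.15, adjusted p = 0.034) were lower (10%, against 13.3% of all genes). The other 18 did not pass. Among carboxypeptidases, 3 of 8 were tested and CPE rose beside CPM (0.71, adjusted p = 0.00055), as 1 of 3 (33.3%, against 12.8% of all genes).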
